A study of Mus musculus with 6 samples.

Results

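Hox genes are the homeobox transcription factor genes that record position along the head-to-tail axis and along the limb. The count table of this study held 39 protein-coding Hox genes among its 54532 genes, chosen as every row whose Ensembl identifier carries, in the GENCODE mouse annotation, a symbol of Hoxa, Hoxb, Hoxc or Hoxd followed by a number. The tissue was quadriceps, a thigh muscle, of mouse pups aged 10 days. The groups were Myf5Cre-Pcyt2 pups (3 libraries), whose muscle was meant to lack Pcyt2, and control pups with the Pcyt2 flox/flox genotype on the same background (3 libraries). Pcyt2 encodes an enzyme of phosphatidylethanolamine synthesis. In Myf5Cre mice the Cre recombinase is made where Myf5 is active, chiefly in embryonic muscle progenitors, so fibroblasts, vessels and nerves of the same muscle are largely outside the deleted lineage. The labels do not say whether the controls carried Cre, and do not name a sex or a litter. All pups had chow-fed housing, and total RNA was the starting material.

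Library totals were 18271765 to 20446920 counts in Myf5Cre-Pcyt2 and 17775898 to 20216013 counts in control. Pcyt2 had 14.9, 14.3 and 12.6 CPM (counts scaled to a common library total, with TMM factors) in Myf5Cre-Pcyt2, against 18.7, 16.1 and 16 CPM in control, and the difference did not pass the test (log2 fold change −0.28, SE 0.11, adjusted p = 0.0944). Counts cover the whole gene, so a deleted stretch of Pcyt2 could be partly hidden in this value. The tissue label was met by the fibre gene Acta1, at 32819 ± 1833 CPM in Myf5Cre-Pcyt2 and 49714 ± 7769 CPM in control (SD, n = 3 each). Xist and 4 Y-linked genes showed replicate 3 of each group to be a male and the other libraries females.

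Mammalian Hox genes stand in 4 clusters, and members at the same place in each cluster form a numbered paralog group. Low numbers lie at the 3′ end and act toward the head, high numbers lie at the 5′ end and act toward the tail and the tip of the limb. Each protein binds DNA through a homeodomain, usually beside a Pbx or Meis cofactor. Paralog group 10 patterns the lumbar and sacral vertebrae and the upper leg, where the quadriceps lies, and adult limb cells are known to keep part of this embryonic code. In GRCm38 the HoxA cluster lies on chromosome 6 on the minus strand, HoxB on chromosome 11, HoxC on chromosome 15 and HoxD on chromosome 2, all 3 on the plus strand. Pcyt2 itself lies on chromosome 11, 24.2 Mb from HoxB.

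The homeoboxes of the 3 members of paralog group 10 are shown because Hoxa10 and Hoxc10 were the most abundant Hox genes of the muscle and differed between the groups in opposite directions, while Hoxd10 was almost undetected. Each is the 180-base stretch of the GENCODE transcript that encodes the homeodomain, and capitals mark the 50 positions at which the 3 are not all the same.
Hoxa10: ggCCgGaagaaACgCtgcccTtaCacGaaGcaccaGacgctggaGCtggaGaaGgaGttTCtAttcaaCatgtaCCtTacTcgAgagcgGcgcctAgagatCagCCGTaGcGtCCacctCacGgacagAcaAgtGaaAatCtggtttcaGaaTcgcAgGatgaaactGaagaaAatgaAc
Hoxc10: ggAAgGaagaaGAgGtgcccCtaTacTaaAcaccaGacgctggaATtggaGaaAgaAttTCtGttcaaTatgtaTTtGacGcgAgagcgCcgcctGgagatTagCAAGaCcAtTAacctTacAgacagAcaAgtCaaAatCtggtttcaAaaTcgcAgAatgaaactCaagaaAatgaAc
Hoxd10: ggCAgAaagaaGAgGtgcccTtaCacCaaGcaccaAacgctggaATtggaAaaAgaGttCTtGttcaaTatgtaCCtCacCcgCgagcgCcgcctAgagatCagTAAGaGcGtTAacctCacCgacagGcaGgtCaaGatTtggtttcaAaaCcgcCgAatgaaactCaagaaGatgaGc
Hoxa10 and Hoxc10 share 145 of these bases (80.6%) and 56 of the encoded residues (93.3%), and Hoxc10 and Hoxd10 share 149 bases (82.8%). The capitals lie along the whole box. Hoxa10 shared no 50-base stretch with any other annotated transcript, and neither did Hoxa5 or Hoxc6. Hoxc10 shared 119 such stretches (6.4% of its own) with Hoxc5, whose long annotated transcript runs through it, and none with Hoxa10 or Hoxd10. Of the 39 members, 30 shared no such stretch with another Hox gene, and the Hoxd3 and Hoxd4 models shared the most.

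The quadriceps had counts for paralog groups 2 to 11 and few or no counts for groups 1, 12 and 13. A filter on low counts (edgeR's filterByExpr) kept 26 of the 39 genes, which are called tested below. Tested genes made up 9 of 11 members of HoxA, 8 of 10 of HoxB, 7 of 9 of HoxC and 2 of 9 of HoxD. By paralog group, the tested share was 2 of 2 for group 2, 2 of 3 for group 3, 3 of 4 for group 4, all members of groups 5 to 9, and 2 of 3 for groups 10 and 11. No member of groups 1, 12 and 13 was tested. Groups 2 and 3 rest on Hoxa2, Hoxb2, Hoxa3 and Hoxb3, with 15% to 52.9% of exon sequence overlapping another gene. Their counts are thus less certain.

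Among the 13 members that were not tested, 6 had 0 counts in all 6 libraries, namely Hoxb1, Hoxb13, Hoxc12, Hoxd1, Hoxd4 and Hoxd12. A count of 0 allows a level of up to 0.131 to 0.16 CPM (3 counts) in the Myf5Cre-Pcyt2 libraries and 0.159 to 0.174 CPM in the control libraries. The other 7 had fewer than 10 counts in every library. Hoxa13, a gene of the hand and foot plate, had 2, 1 and 8 counts in Myf5Cre-Pcyt2 and 1, 4 and 7 in control. Hoxd13, also a digit gene, had 2 to 4 counts in every library. Hoxd10 had 2, 4 and 2 counts in Myf5Cre-Pcyt2 and 0, 3 and 4 in control. Hoxc13, Hoxd3 and Hoxd11 had at most 2 counts. The genes with few or no counts were therefore those of groups 1, 12 and 13 and, in HoxD, all members other than Hoxd8 and Hoxd9, while Hoxc4, the 3′ end of HoxC, had 120 to 177 counts.

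**Figure D1:**
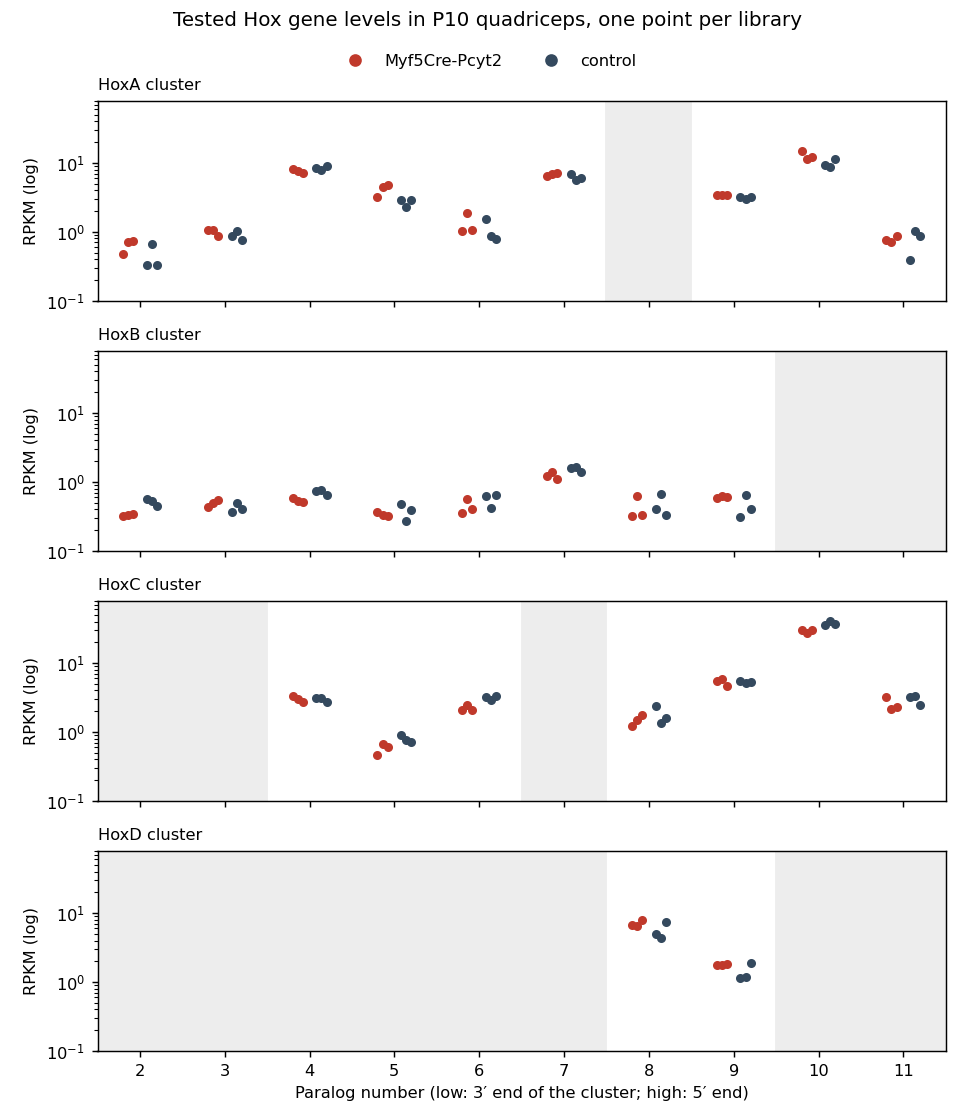
Level of each of the 26 tested Hox genes in each library, as CPM per kilobase of annotated exon (RPKM, log axis), by cluster and paralog number, with Myf5Cre-Pcyt2 left of control. Grey marks paralog numbers with no tested gene in that cluster. Hoxc10 and Hoxa10 stand highest at number 10, HoxB stays low along its length, and HoxD is seen at numbers 8 and 9.

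Between genes, levels were compared per kilobase of annotated exon, as the mean RPKM over the 6 libraries. Hoxc10 was the most abundant Hox gene at 33.5 RPKM, which is above 93% of the 14715 genes tested. Its RPKM was 29.3 ± 2.06 in Myf5Cre-Pcyt2 and 37.7 ± 2.92 in control (SD, n = 3 each). Hoxa10 came next at 11.2 RPKM, with 12.8 ± 1.77 in Myf5Cre-Pcyt2 and 9.69 ± 1.29 in control. Both genes of the hip and thigh level thus stood above all other Hox genes in mean level.

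Behind them came Hoxa4 at 8.01 RPKM, Hoxa7 at 6.54, Hoxd8 at 6.31 and Hoxc9 at 5.38. Hoxa4, a gene of the neck region, had 7.64 ± 0.473 RPKM in Myf5Cre-Pcyt2 and 8.39 ± 0.473 in control. Hoxa7 had 6.88 ± 0.321 RPKM in Myf5Cre-Pcyt2 and 6.20 ± 0.674 in control. Hoxd8 had 7.05 ± 0.693 RPKM in Myf5Cre-Pcyt2 and 5.56 ± 1.58 in control, so its place relative to Hoxa7 was within the spread of the libraries. A middle group of Hoxa5, Hoxa9, Hoxc4, Hoxc11, Hoxc6, Hoxc8, Hoxd9, Hoxb7 and Hoxa6 ran in this order from 3.41 to 1.19 RPKM. The remaining 11 tested genes lay between 0.942 RPKM for Hoxa3 and 0.358 RPKM for Hoxb5. They include Hoxa11, Hoxc5, Hoxa2 and every tested HoxB gene other than Hoxb7.

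Annotation limits some of these levels, since no source used here gives the strand setting of the counting. Exons of 16 of the 39 members, 11 of them tested, overlap exons of another gene. The share of exon sequence that overlaps was 52.9% for Hoxb3 and 27.3% for Hoxb2, both with the opposite-strand Hoxb3os, and 35% for Hoxa11 with the opposite-strand Hoxa11os. It was 27.1% for Hoxa3, 20.4% for Hoxa7, 16% for Hoxa4 and 15% for Hoxa2. The nearly uncounted Hoxd3 and Hoxd4 had 62.8% and 52.3%. Hoxa5, Hoxa10, Hoxc6, Hoxd8 and Hoxd9 had no such overlap, and Hoxc10 had 8.7%.

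Summed over all members, Hox RNA did not separate the groups once libraries were scaled. The sum was 245, 232 and 239 CPM in Myf5Cre-Pcyt2 and 236, 236 and 245 CPM in control, with means of 239 ± 6.51 and, in control, 239 ± 5.2 CPM (SD, n = 3 each). As CPM of the unscaled library totals it was 257 ± 4.93 in Myf5Cre-Pcyt2 and 222 ± 19.1 in control. In bulk tissue, fewer cells of a type and less RNA per cell cannot be told apart.

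The comparison of Myf5Cre-Pcyt2 with control asks which of these positional genes differ in muscle made deficient for Pcyt2. Hoxa5 and Hoxa10 rose and Hoxc6 and Hoxc10 fell in Myf5Cre-Pcyt2, each by less than 2-fold. These 4 of 26 tested members are 15.4%, against 18.6% of all 14715 tested genes past the same threshold (adjusted p under 0.05 by edgeR's quasi-likelihood test), so the share of Hox genes was near that of the transcriptome. By direction, 2 were higher and 2 lower, where 9.02% of all genes were higher and 9.59% lower. DESeq2 and limma-voom each also gave 2 higher and 2 lower. At an unadjusted p under 0.05 by edgeR, 2 Hox genes were higher and 3 lower, beside 2514 and 2560 of all 14715 tested genes. The median log2 fold change of the tested members was 0.02, beside 0.00 for all genes, and the range was −0.64 to 0.62. The median size of the change, regardless of sign, was 0.31 for Hox genes and 0.22 for all genes. Several tested Hox genes had few counts and wide errors, such as Hoxb8 (SE 0.36) and Hoxa6 (SE 0.35). The part of low counts in this size was not tested. With 1 library left out, the counts were 1 higher and 1 lower without Myf5Cre-Pcyt2 replicate 1, 0 and 1 without control replicate 1, 2 and 1 without control replicate 3, and 0 and 0 without any of the other 3. Since separate litters are not named, the p-values speak of these libraries and their spread, which may be partly technical.

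Hoxa5, which patterns the neck-to-chest transition and the lung, had 6.09, 8.3 and 8.87 CPM in Myf5Cre-Pcyt2 and 5.35, 4.29 and 5.5 CPM in control. The groups did not overlap, and the lowest Myf5Cre-Pcyt2 library was close to the highest control. The means were 7.75 ± 1.47 CPM in Myf5Cre-Pcyt2 and 5.05 ± 0.658 CPM in control (SD, n = 3 each), a 1.54-fold rise (log2 fold change 0.62, SE 0.18, 95% interval 0.23 to 1.02, adjusted p = 0.0361). Without Myf5Cre-Pcyt2 replicate 2 the adjusted p was 0.128, and without replicate 3 it was 0.136. Leaving out a control gave 0.0519 without replicate 1, 0.124 without replicate 2 and 0.0531 without replicate 3. The gene passed in 8 of 14 alternative settings and kept its direction in 14 of 14.

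Hoxa10, a determinant of the lumbar and upper-leg level, had 48.3, 37.2 and 39.8 CPM in Myf5Cre-Pcyt2, against 30, 28.6 and 36.5 CPM in control. The lowest Myf5Cre-Pcyt2 library was just above the highest control. It rose 1.32-fold, with means of 41.7 ± 5.8 CPM in Myf5Cre-Pcyt2 and 31.7 ± 4.22 CPM in control (log2 fold change 0.40, SE 0.12, 95% interval 0.13 to 0.67, adjusted p = 0.0463). Leaving out Myf5Cre-Pcyt2 replicates 1, 2 and 3 in turn gave adjusted p-values of 0.141, 0.0669 and 0.0936. Leaving out control replicate 1 gave 0.0936, and leaving out control replicate 2 gave 0.147. Hoxa10 passed in 8 of 14 alternatives and was higher in Myf5Cre-Pcyt2 in all 14.

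Hoxc10, the other expressed member of paralog group 10, moved the other way. It had 57.9, 51.4 and 58.4 CPM in Myf5Cre-Pcyt2 and 67.6, 78.2 and 69.9 CPM in control, and the groups did not overlap. Hoxc10 fell to 0.777 of control, with means of 55.9 ± 3.92 CPM in Myf5Cre-Pcyt2 and 71.9 ± 5.57 CPM in control (log2 fold change −0.36, SE 0.09, 95% interval −0.56 to −0.16, adjusted p = 0.0212). The call was lost without Myf5Cre-Pcyt2 replicate 2 (adjusted p = 0.0979), without Myf5Cre-Pcyt2 replicate 3 (0.0555) and without control replicate 2 (0.0795). Scaling by library size alone also ended it, at a log2 fold change of −0.15 and an adjusted p of 0.226, and that scaling moved the median of all genes to 0.21. The direction was kept in 14 of 14 alternatives, and 9 of 14 passed.

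Hoxc6, a chest-level gene of paralog group 6, had 5.02, 5.85 and 4.94 CPM in Myf5Cre-Pcyt2 and 7.68, 6.9 and 7.94 CPM in control. Every Myf5Cre-Pcyt2 library lay below every control. The means were 5.27 ± 0.504 CPM in Myf5Cre-Pcyt2 and 7.5 ± 0.537 CPM in control (SD, n = 3 each), and the gene fell to 0.703 of control (log2 fold change −0.51, SE 0.14, 95% interval −0.83 to −0.19, adjusted p = 0.0344). With any single library left out the call was lost: the adjusted p was 0.0795, 0.063 and 0.115 without Myf5Cre-Pcyt2 replicates 1, 2 and 3, and 0.0724, 0.0611 and 0.0851 without control replicates 1, 2 and 3. Library size alone gave a log2 fold change of −0.30 and an adjusted p of 0.24. Hoxc6 passed in 6 of 14 alternatives and was lower in all 14.

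**Figure D2:**
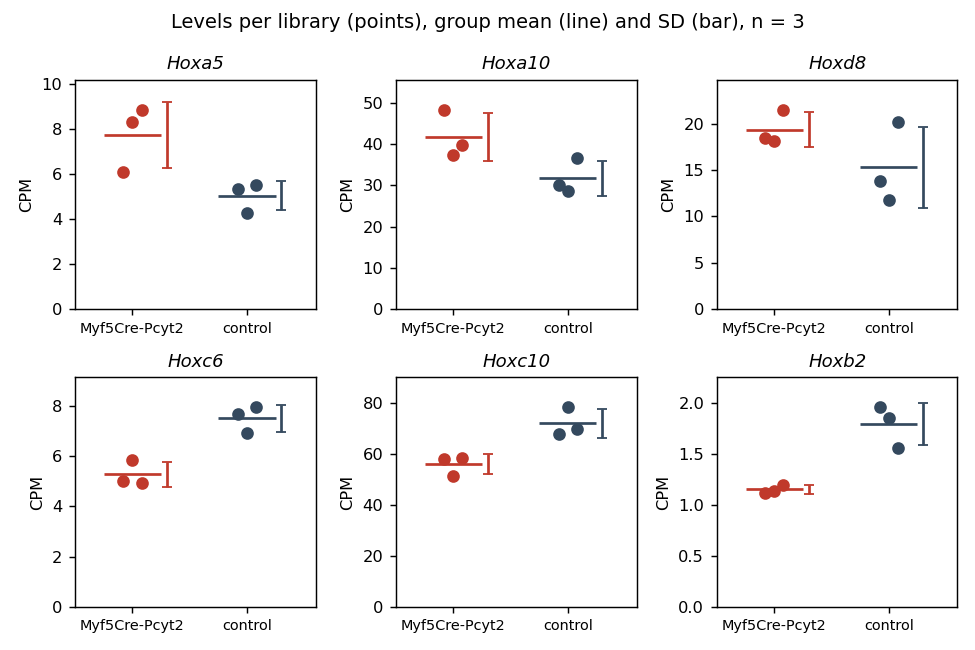
Level in each library (points, CPM), group mean (line) and SD (bar) of the 4 Hox genes past the threshold and of Hoxd8 and Hoxb2, which did not pass, with Myf5Cre-Pcyt2 left of control (n = 3 each). The 3 Myf5Cre-Pcyt2 points of Hoxa5 and Hoxa10 lie above all control points, those of Hoxc6, Hoxc10 and Hoxb2 lie below them, and Hoxd8 overlaps through control replicate 3 at 20.2 CPM.

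Both genes that rose belong to HoxA and lie in its 5′ and middle stretches, and RefSeq promoter windows (250 bases before to 50 after the start, GRCm38.p6) are shown for them. Capitals mark matches, on either strand, to 4 motifs searched: the TATA box TATAAA, the CCAAT box CCAAT, the Hox-Pbx site TGATTNAT and AGGTCA. The string AGGTCA is only a part of a retinoic acid receptor element, and whole elements were not searched. No matches overlap in these windows.
Hoxa5, chr6:52204538-52204837, minus strand: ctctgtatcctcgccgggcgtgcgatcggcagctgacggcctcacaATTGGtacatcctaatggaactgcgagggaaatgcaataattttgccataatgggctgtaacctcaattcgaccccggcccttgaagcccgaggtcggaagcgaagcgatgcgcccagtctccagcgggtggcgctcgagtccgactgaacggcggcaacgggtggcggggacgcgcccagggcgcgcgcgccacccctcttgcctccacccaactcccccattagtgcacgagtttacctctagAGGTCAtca
Hoxa10, chr6:52234890-52235189, minus strand: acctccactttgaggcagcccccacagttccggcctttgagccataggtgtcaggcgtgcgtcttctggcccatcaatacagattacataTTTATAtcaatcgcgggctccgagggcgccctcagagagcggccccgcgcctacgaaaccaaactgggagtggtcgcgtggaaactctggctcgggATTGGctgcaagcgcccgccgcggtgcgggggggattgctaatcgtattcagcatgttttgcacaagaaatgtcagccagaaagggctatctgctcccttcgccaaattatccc
The Hoxa5 window holds a CCAAT box and an AGGTCA match, with 29 CpG and 61.7% GC. The Hoxa10 window holds a TATA box and a CCAAT box, with 21 CpG and 57.3% GC, and the window of a second Hoxa10 start, chr6:52240805-52241104, holds none of the 4 motifs. Among all 32851 windows, 13.6% hold TATAAA, 37.4% CCAAT, 3.22% TGATTNAT and 16.3% AGGTCA. Of the 24 Hox windows, which cover 22 of the 39 genes, 4 hold TATAAA, 15 CCAAT, 2 TGATTNAT and 7 AGGTCA. Hox windows had a median of 14.5 CpG and 57.7% GC, beside 7 CpG and 52.7% GC over all windows. A match is a string of letters and not a bound site.

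The other 22 tested members did not pass the threshold. In HoxA, Hoxa4 had 12.9, 12.2 and 11.4 CPM in Myf5Cre-Pcyt2 and 13.2, 12.7 and 14.2 CPM in control (log2 fold change −0.14, SE 0.10, adjusted p = 0.378). Hoxa9 had 19.1, 19.1 and 18.9 CPM in Myf5Cre-Pcyt2 and 17.7, 16.5 and 17.7 CPM in control, which did not overlap. Its log2 fold change was 0.14 (SE 0.09, adjusted p = 0.277). Log2 fold changes of Hoxa2, Hoxa3, Hoxa6, Hoxa7 and Hoxa11 were 0.57, 0.15, 0.31, 0.15 and 0.03, with adjusted p from 0.263 to 0.961. Hoxa4 was the single tested HoxA gene with a negative value, and library size alone turned it to 0.07.

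In HoxB no gene passed by edgeR, DESeq2 or limma-voom, and 1 of 8, Hoxb2, was lower at an unadjusted p under 0.05. At that cutoff 2560 of all 14715 tested genes were lower. Hoxb2, a hindbrain gene named here after its values were seen, had 1.12, 1.14 and 1.2 CPM in Myf5Cre-Pcyt2 and 1.96, 1.86 and 1.56 CPM in control. Its log2 fold change, −0.64, was the lowest of the tested members (SE 0.23, adjusted p = 0.0745), and 27.3% of its exon sequence overlaps Hoxb3os. Hoxb7 had 1.87, 2.14 and 1.71 CPM in Myf5Cre-Pcyt2 and 2.49, 2.49 and 2.14 CPM in control (log2 fold change −0.32, SE 0.20, adjusted p = 0.299). Hoxb4, known for its role in blood stem cells, had 1.49, 1.35 and 1.29 CPM in Myf5Cre-Pcyt2 and 1.91, 1.97 and 1.68 CPM in control (log2 fold change −0.43, SE 0.22, adjusted p = 0.192). All 3 genes had every Myf5Cre-Pcyt2 library below every control, for Hoxb7 by less than the digits printed. The log2 fold changes of Hoxb3, Hoxb5, Hoxb6, Hoxb8 and Hoxb9 were 0.22, −0.19, −0.35, −0.09 and 0.42, with adjusted p from 0.332 to 0.88.

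In HoxC, Hoxc9, which marks the chest-to-lumbar level, had 13.5, 14.5 and 11.4 CPM in Myf5Cre-Pcyt2 and 13.4, 12.6 and 12.9 CPM in control. Its log2 fold change was 0.01 with a 95% interval of −0.24 to 0.26 (adjusted p = 0.948). Hoxc5 had 1.44, 2.05 and 1.89 CPM in Myf5Cre-Pcyt2 and 2.75, 2.32 and 2.2 CPM in control, without overlap (log2 fold change −0.43, SE 0.22, adjusted p = 0.195). Hoxc4, Hoxc8 and Hoxc11 had log2 fold changes of 0.02, −0.25 and −0.25, with adjusted p from 0.403 to 0.938.

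In HoxD no gene passed by edgeR, DESeq2 or limma-voom, and none was under 0.05 before adjustment. Hoxd8 had 18.4, 18.1 and 21.5 CPM in Myf5Cre-Pcyt2 and 13.8, 11.8 and 20.2 CPM in control (log2 fold change 0.34, SE 0.17, adjusted p = 0.179). Hoxd9, a paralog of Hoxa9, had 3.79, 3.8 and 3.93 CPM in Myf5Cre-Pcyt2 and 2.49, 2.49 and 4 CPM in control (log2 fold change 0.36, SE 0.21, adjusted p = 0.258). Both were highest among controls in replicate 3, a male, where the Myf5Cre-Pcyt2 male had 21.5 and 3.93 CPM, and the part of sex in this was not tested. Without control replicate 3 the log2 fold change of Hoxd8 was 0.59 and its adjusted p 0.0154. With no filter on low counts Hoxd8 also passed, at an adjusted p of 0.033.

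Counting all tested members, 9 of 26 (34.6%) had groups that did not overlap, against 39% of all tested genes. Of these, 3 were higher in Myf5Cre-Pcyt2 (Hoxa5, Hoxa9 and Hoxa10), and 6 were lower (Hoxb2, Hoxb4, Hoxb7, Hoxc5, Hoxc6 and Hoxc10). Among all genes 19.9% were higher and 19.2% lower without overlap.

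**Figure D3:**
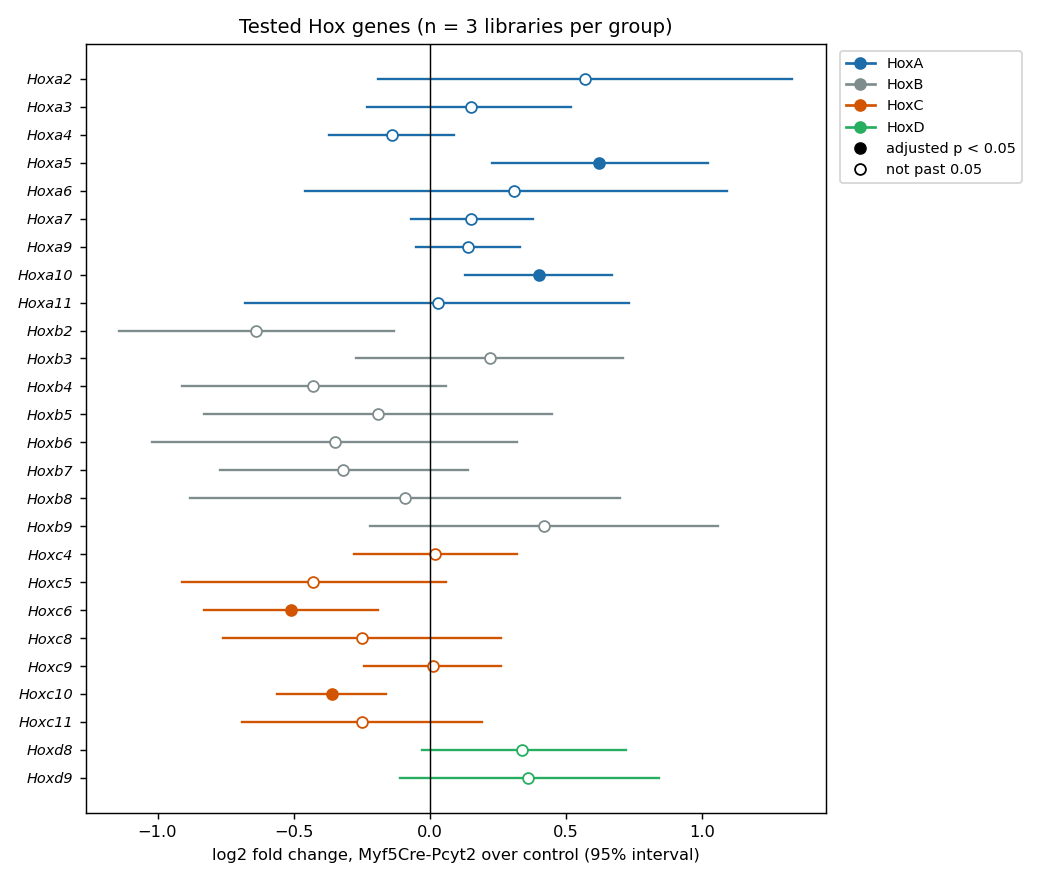
Log2 fold change of the 26 tested Hox genes, Myf5Cre-Pcyt2 over control, with its 95% interval, coloured by cluster and ordered by paralog number (n = 3 libraries per group). Filled points passed the threshold: Hoxa5 at 0.62 and Hoxa10 at 0.40, and Hoxc6 at −0.51 and Hoxc10 at −0.36.

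By cluster, 8 of 9 tested HoxA genes had a positive log2 fold change (median 0.15), both HoxD genes did (median 0.35), and 6 of 8 HoxB and 5 of 7 HoxC genes had a negative one (median −0.25 in each). With library size alone as the scaling, where all genes shift by 0.21, the counts were 9 of 9 positive in HoxA, 2 of 2 in HoxD, 4 of 8 negative in HoxB and 5 of 7 negative in HoxC. Most of these genes did not pass the test singly, and no test was made of the cluster as a whole. Genes of a cluster share regulatory regions and are not independent of each other.

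Shares within the Hox genes do not depend on the scaling between libraries. HoxA supplied 47.1%, 46.5% and 45.8% of Hox counts in Myf5Cre-Pcyt2 and 40.1%, 37.8% and 40.8% in control. HoxC supplied 39.4%, 38.8% and 39% in Myf5Cre-Pcyt2 and 47.8%, 50.3% and 44.6% in control. Neither share overlapped between the groups, so HoxA was the leading cluster in each Myf5Cre-Pcyt2 library and HoxC in each control library. Both shares are parts of the same total, so a rise of HoxA goes with a fall of HoxC and is not a separate result. Hoxa10 and Hoxc10, already past the threshold, held the most counts of their clusters, so the shares in part repeat their differences. HoxD supplied 9.24%, 9.57% and 10.8% in Myf5Cre-Pcyt2 and 6.96%, 6.21% and 9.99% in control. HoxB supplied 4.62% ± 0.496 in Myf5Cre-Pcyt2 and 5.18% ± 0.509 in control (SD, n = 3 each). Counted per kilobase of exon, HoxA held 40.1% ± 0.51 in Myf5Cre-Pcyt2 and 33.4% ± 1.73 in control, and HoxC held 46.1% ± 0.843 in Myf5Cre-Pcyt2 and 54.5% ± 2.99 in control. The groups stayed apart on that scale, while HoxC was then the larger cluster in both groups.

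Ratios of genes within a library are free of that scaling too. Hoxa10 over Hoxc10 was 0.834, 0.724 and 0.681 in Myf5Cre-Pcyt2 and 0.443, 0.366 and 0.522 in control. Hoxa5 over Hoxc6 was 1.21, 1.42 and 1.79 in Myf5Cre-Pcyt2 and 0.697, 0.622 and 0.693 in control. All HoxA over all HoxC was 1.2, 1.2 and 1.18 in Myf5Cre-Pcyt2 and 0.839, 0.752 and 0.915 in control. These genes were picked from their fold changes, so the ratios are a description without a test.

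**Figure D4:**
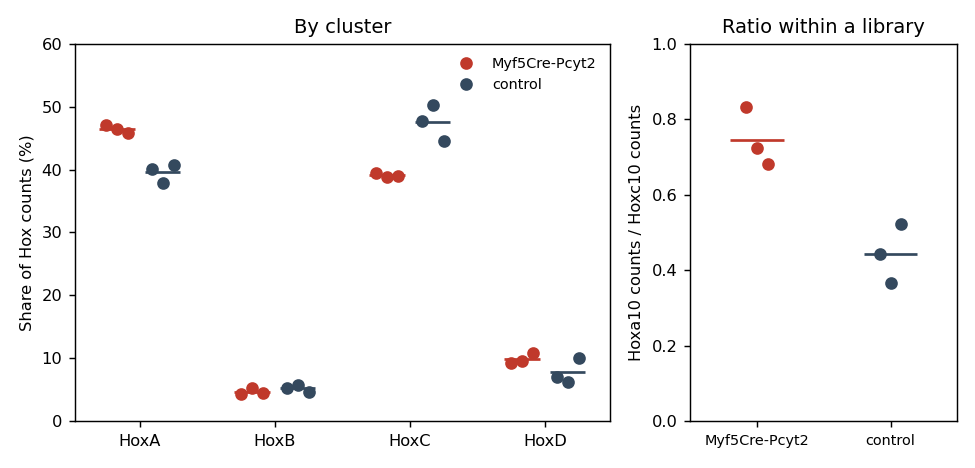
Left, the share of all Hox counts (%) from each cluster, 1 point per library with the group mean as a line, Myf5Cre-Pcyt2 left of control. Right, the ratio of Hoxa10 to Hoxc10 counts in each library. The HoxA share is 45.8% to 47.1% in Myf5Cre-Pcyt2 and 37.8% to 40.8% in control, and the ratio is 0.681 to 0.834 in Myf5Cre-Pcyt2 and 0.366 to 0.522 in control.

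By paralog group, most shares overlapped between the groups. Group 10 supplied 40.9% ± 2.61 of Hox counts in Myf5Cre-Pcyt2 and 43.4% ± 1.96 in control, which overlapped. Group 9 supplied 15.5%, 16.8% and 15% in Myf5Cre-Pcyt2 and 14.6%, 14.1% and 14.5% in control, without overlap. Group 8 held 10.4% ± 1.07 in Myf5Cre-Pcyt2 and 8.97% ± 1.52 in control, group 4 held 8.93% ± 0.611 and, in control, 9.57% ± 0.243, and group 7 held 9.1% ± 0.579 in Myf5Cre-Pcyt2 and 8.45% ± 0.904 in control. Groups 2, 3, 5, 6 and 11 each held under 5% in every library, and no group other than 9 kept the libraries of Myf5Cre-Pcyt2 and control apart.

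Markers of several cell types differed between the same libraries, to be read against the 9.02% of all tested genes that were higher and the 9.59% that were lower. Satellite cell markers (4 of 6 higher, none lower, among them Pax7) summed to 99.8 to 104 CPM in Myf5Cre-Pcyt2 and 68.9 to 75.7 CPM in control. Schwann cell markers (4 of 6 higher, none lower) summed to 425 to 592 CPM in Myf5Cre-Pcyt2 and 290 to 349 CPM in control. Fibroblast markers (1 of 8 higher, Pdgfra) summed to 16263 to 18282 CPM in Myf5Cre-Pcyt2 and 11692 to 15328 CPM in control. Of the 8, 7 had a positive log2 fold change, down to 0.02 for Dcn, and Ly6a had −0.20. Col1a1, Col1a2 and Col3a1, which make up most of that sum, did not pass by edgeR (adjusted p = 0.184, 0.168 and 0.0858). Muscle fibre markers (2 of 6 lower, Ckm and Tnnt3) summed to 91067 to 116060 CPM in Myf5Cre-Pcyt2 and 134304 to 187706 CPM in control. Of the 6, 4 had a negative log2 fold change, while Myh1 (0.23) and Ttn (0.20) were positive. Acta1 and Myh4, the most abundant, did not pass by edgeR (adjusted p = 0.0699 and 0.0973). DESeq2 and limma-voom each gave 3 of the 6 fibre markers lower. Tendon markers had 2 of 6 higher, cartilage and bone markers 1 of 3 tested higher, and endothelial markers 1 of 6 lower. DESeq2 gave 3 fibroblast, 5 Schwann, 3 tendon and 2 cartilage and bone markers higher, and limma-voom gave 1, 4, 2 and 1. A single edgeR call made up 12.5% of the fibroblast, 33.3% of the tested cartilage and bone and 16.7% of the endothelial markers. In lists this short, 1 gene says little about a difference from all genes. Mural, macrophage, adipocyte and the few tested haematopoietic and keratinocyte markers had none past the threshold by edgeR, DESeq2 or limma-voom. All 6 adipocyte markers had a negative log2 fold change (median −0.82). They summed to 424, 485 and 469 CPM in Myf5Cre-Pcyt2 and 850, 308 and 541 CPM in control. The control libraries thus varied widely in these markers, and the groups overlapped. At an unadjusted p under 0.05, 2 of 6 macrophage markers were higher and 2 of 6 adipocyte markers lower. At that cutoff 2514 of all 14715 tested genes were higher and 2560 lower. Neuron markers were near 0, with Snap25 and Chat at 0 counts in every library and a summed level of 0.231 to 0.349 CPM in Myf5Cre-Pcyt2 and 0.159 to 0.348 CPM in control. Hox genes are known to be expressed in several of these cell types, and the part of cell makeup in the Hox differences was not tested.

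Genes known to act with or on Hox genes were read from 6 lists. Together 7 of their 88 tested members passed (7.95%, against 18.6% of all genes), 5 higher and 2 lower. With library size alone as the scaling, which moves the median of all genes to 0.21 and the higher calls among all genes to 3225, the genes higher were 6 of the TALE cofactors, 11 of the Polycomb genes, 9 of the trithorax genes, 5 of the axial and limb inputs, 4 of the limb identity genes and 0 of the non-coding genes, and none was lower. Of the TALE homeodomain cofactors, 1 of 8 passed: Pknox2 fell, with 42.1 ± 4.14 CPM in Myf5Cre-Pcyt2 and 54.1 ± 4.64 CPM in control (log2 fold change −0.36, SE 0.10, adjusted p = 0.0317). Pknox2 passed in 9 of 14 alternatives. Losses included those without Myf5Cre-Pcyt2 replicate 2 (adjusted p = 0.133), without Myf5Cre-Pcyt2 replicate 3 (0.0938), without control replicate 2 (0.111) and with library size alone (0.254). The median of the list was 0.24. Pbx4, below the filter, had 12, 9 and 18 counts in Myf5Cre-Pcyt2 and 3, 2 and 1 counts in control. With no filter on low counts, 1 gene of the list was higher.

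Polycomb proteins keep Hox genes silent and trithorax proteins keep them active. Of 23 Polycomb genes, 2 rose and none fell by edgeR, and the median log2 fold change was 0.14. DESeq2 gave 2 of these Polycomb genes higher and 1 lower, and limma-voom gave 2 higher and 0 lower. Asxl1, which works with the deubiquitinase of this system, rose to 40.7 ± 1.69 CPM in Myf5Cre-Pcyt2, against 29.6 ± 0.944 CPM in control (log2 fold change 0.46, SE 0.08, adjusted p = 0.00571), and passed in all 14 alternatives. Mtf2, a subunit that brings PRC2 to CpG islands, had 30.4 ± 1.13 CPM in Myf5Cre-Pcyt2 and 24.8 ± 1.83 CPM in control (log2 fold change 0.29, SE 0.09, adjusted p = 0.0413). It passed in 6 of 14 alternatives. Losses included those with DESeq2 (adjusted p = 0.0783), with no filter (0.0625), without Myf5Cre-Pcyt2 replicates 1 (0.0553), 2 (0.137) and 3 (0.139), and without control replicates 1 (0.088) and 2 (0.117). Of 19 trithorax and demethylase genes, 0 passed by edgeR, DESeq2 or limma-voom, with 4 higher and 0 lower at an unadjusted p under 0.05. At that cutoff 2514 of all 14715 tested genes were higher and 2560 lower. The smallest p in the trithorax list was that of Psip1, at 51.7, 49.3 and 48.9 CPM in Myf5Cre-Pcyt2 and 42.8, 41 and 44 CPM in control (log2 fold change 0.23, SE 0.08, adjusted p = 0.0652). Library size alone took that p to 0.0137.

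Retinoic acid, made by the Aldh1a enzymes, and the hedgehog pathway are upstream of Hox genes in the embryo. In the list of axial and limb inputs 12 of 22 genes were tested, and 3 rose. Gli3, a hedgehog pathway repressor, had 12.6 ± 1.16 CPM in Myf5Cre-Pcyt2 and 7.59 ± 0.599 CPM in control (log2 fold change 0.74, SE 0.12, adjusted p = 0.00487). Aldh1a3 had 12.2 ± 0.933 CPM in Myf5Cre-Pcyt2 and 7.67 ± 0.585 CPM in control (log2 fold change 0.66, SE 0.12, adjusted p = 0.00629). Both passed in all 14 alternatives. Aldh1a2 had 4.11, 6.33 and 3.83 CPM in Myf5Cre-Pcyt2 and 1.54, 1.97 and 3.01 CPM in control (log2 fold change 1.14, SE 0.28, adjusted p = 0.02), and missed the threshold without Myf5Cre-Pcyt2 replicate 2 (0.0952) and without control replicate 2 (0.0704). The embryonic inputs Cdx2, Cdx4, Shh and Wnt3a had 0 counts in all libraries.

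Among the limb identity and migrating muscle precursor genes, 1 of 18 tested passed. Lbx1, which marks muscle precursors that migrate into the limb, fell to 48.3 ± 5.85 CPM in Myf5Cre-Pcyt2, against 65.3 ± 10.5 CPM in control (log2 fold change −0.43, SE 0.12, adjusted p = 0.0358). It passed in 9 of 14 alternatives. Losses included those without Myf5Cre-Pcyt2 replicates 2 (adjusted p = 0.134) and 3 (0.131), without control replicate 2 (0.124) and with library size alone (0.142). The hindlimb genes Pitx1 and Tbx4 were present, Pitx1 at 1.8 ± 0.771 CPM in Myf5Cre-Pcyt2 and 1.54 ± 0.262 CPM in control, and Tbx4 at 4.3 ± 0.504 CPM in Myf5Cre-Pcyt2 and 3.83 ± 0.391 CPM in control. The forelimb gene Tbx5 had 2.17 ± 0.46 CPM in Myf5Cre-Pcyt2 and 2.31 ± 0.497 CPM in control, and none of the 3 passed.

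The non-coding genes of the clusters were low. Of the 16 that were matched, 8 passed the filter and 0 differed past the threshold by edgeR, DESeq2 or limma-voom. At an unadjusted p under 0.05, where 2560 of all 14715 tested genes were lower, 1 of the 8 was lower. That gene, Halr1, lies beside HoxA and was at 0.609 ± 0.114 CPM in Myf5Cre-Pcyt2 and 1.01 ± 0.278 CPM in control (log2 fold change −0.72, SE 0.32, adjusted p = 0.141). Hottip, which lies at the 5′ end of HoxA, and the microRNA genes Mir10a, Mir10b, Mir196a-2, Mir196b and Mir615 had 0 counts in every library. No source used here gives the library type.

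**Figure D5:**
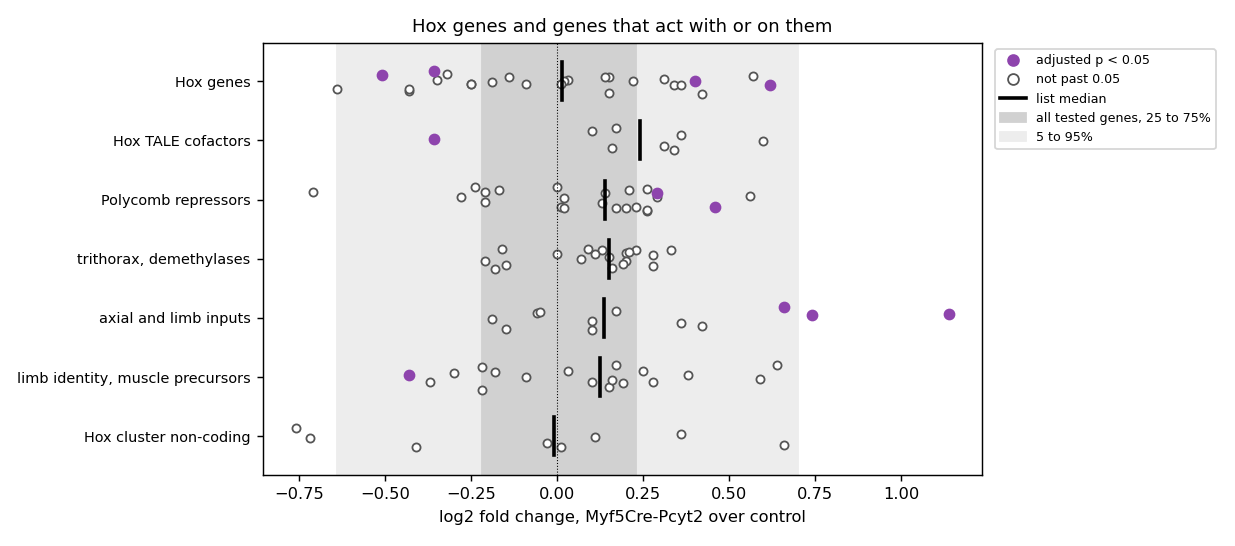
Log2 fold change, Myf5Cre-Pcyt2 over control, of each tested Hox gene and of each tested gene of the 6 lists, with the list median as a bar and filled points for genes past the threshold. The grey bands hold the middle 50% and 90% of all tested genes. The 3 filled points at the right of the axial and limb inputs are Aldh1a2 at 1.14, Gli3 at 0.74 and Aldh1a3 at 0.66.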

How the data were processed

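The deposited file holds raw counts for each Ensembl gene. The submitters' processing notes name Subread 1.6.2, featureCounts, Bowtie2 2.3.4.1, Trim Galore 0.5.0 and the builds GRCm38 and mm10, with no role or order. No source used here states the annotation release, the strand setting or the treatment of reads shared by genes. Symbols and positions came from GENCODE M21 for 54409 of 54532 genes. The 3 Myf5Cre-Pcyt2 libraries were compared with the 3 control libraries with edgeR 4.0.16 in R 4.3.3 (filterByExpr, TMM factors, quasi-likelihood test, two-sided, Benjamini-Hochberg over the 14715 tested genes, threshold 0.05). Errors are SE of the fit or SD of libraries, and with 3 per group both are imprecise. DESeq2 1.42.0, limma-voom (limma 3.58.1), other scalings and filters, each library left out and a replicate block were alternatives. CPM are TMM-normalised, RPKM divides them by the annotated exon length. Shares use raw counts. Homeoboxes were found by translating GENCODE transcripts, promoters are RefSeq windows, and figures were drawn with matplotlib 3.10.9 in Python 3.11.15. No 2 libraries looked like copies. The Hox genes and lists were chosen with earlier results of these data known. Per-library values are given for members past the threshold, the 2 highest per kilobase of each cluster and the 2 smallest p-values, and for genes named as chosen later. Hoxa9 and Hoxc5 were given per library after their values were seen. Of the lists, members past the threshold are named, or the smallest p. Pbx4, Pitx1, Tbx4, Tbx5 and the markers were named after their values were seen. Some items are not reported here.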

Additional observations from a re-analysis of the deposited data

How the results depend on the processing

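Over 14 alternatives the 26 tested Hox genes gave 362 values, of which 319 kept direction and side of the threshold, 25 missed it, 2 newly passed and 16 turned direction. Hoxa5, Hoxa10, Hoxc6 and Hoxc10 kept their direction throughout. Library size alone gave 0 Hox genes lower, 3225 of all genes higher and 499 lower, 35 list genes higher and 0 lower, and turned Hoxa4 to 0.07, Hoxb5 to 0.02 and Hoxb8 to 0.14, with the median of all genes at 0.21. With no filter 8 list genes were higher and 4 lower, and DESeq2 gave 4 lower. Leaving out 1 library gave 0 to 2 Hox genes higher and 0 to 1 lower, 422 to 1337 of all genes higher and 424 to 1448 lower (422 and 424 with Myf5Cre-Pcyt2 replicate 2 left out, 639 and 641 for Myf5Cre-Pcyt2 replicate 3, 601 and 699 for control replicate 2), and 3 to 8 list genes higher and 0 to 3 lower. It turned single uncalled genes, whose log2 fold changes ran from −0.02 to 0.68 (Hoxa6), −0.29 to 0.32 (Hoxa11), −0.38 to 0.01 (Hoxb5), −0.49 to 0.24 (Hoxb8), −0.05 to 0.09 (Hoxc4), −0.40 to 0.03 (Hoxc8) and −0.06 to 0.10 (Hoxc9). Counted per kilobase, the HoxA share was 40.1% in Myf5Cre-Pcyt2 and 33.4% in control, and the HoxC share 46.1% in Myf5Cre-Pcyt2 and 54.5% in control. The filter of 1 CPM in 3 libraries kept 24 Hox genes and gave no value for Hoxa2 and Hoxa6, and 33 had a count in some library. The cause of these shifts was not tested.

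Replicate numbers did not pair the libraries: deviations of same-numbered libraries from their group means correlated at −0.11, −0.17 and 0.02. With the replicate number as a block, 0 Hox genes were higher and 0 lower, 865 of all genes were higher and 866 lower, and 4 list genes were higher and 1 lower. Adjusted p under the block was 0.0582 for Hoxa5, 0.0613 for Hoxa10, 0.0764 for Hoxc6 and 0.0646 for Hoxc10, and of the list genes it was 0.0753 for Pknox2, 0.0885 for Mtf2 and 0.0563 for Lbx1.

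Depth limits the low genes: Hoxb8, with 16 to 38 counts in Myf5Cre-Pcyt2 and 15 to 30 in control, had a 95% interval of −0.88 to 0.70, so smaller changes were not detectable. Single calls lay close to the threshold, and 3 libraries per group, 1 of them male in each, give few residual degrees of freedom.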
